A study of Mus musculus with 18 samples.

Results

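The mouse genes of DNA methylation were followed through deletion of *Kdm6a* and through differentiation in hybrid female embryonic stem (ES) cells. They are the 3 DNA methyltransferases *Dnmt1*, *Dnmt3a* and *Dnmt3b*, the catalytically inactive cofactor *Dnmt3l*, the recruiting factor *Uhrf1*, and the 3 TET dioxygenases *Tet1*, *Tet2* and *Tet3*. They were taken by gene symbol, and all 8 were found among the 24346 symbols of each of the 18 RNA-seq libraries and passed the filter on low values in both lines.

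DNA methylation in mammals sits mostly on the cytosine of the CpG dinucleotide. DNMT1 copies the mark onto the new strand after replication, and UHRF1 binds hemimethylated sites and brings DNMT1 to them. DNMT3A and DNMT3B place new marks with the help of DNMT3L, and TET enzymes oxidize methylcytosine, which leads to its loss. In ES cells these activities run side by side, and differentiation is known to be accompanied by a broad shift towards methylation.

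*Kdm6a* encodes an X-linked H3K27 demethylase, and the study asked how its loss acts on differentiating female cells. *Tsix*-stop cells are a hybrid female ES line with a paternal *cast* genome and a maternal genome that the authors represented by a pseudo-129 genome. They carry a transcriptional stop in *Tsix* on the maternal X chromosome, and wt, KO and CRISPR control libraries all carried it. *Tsix*-stop KO cells have a deletion from part of exon 2 to part of exon 4 of *Kdm6a*, on both alleles per the study. They were derived as 2 clones, and the labels do not say which library came from which clone. The study found residual *Kdm6a* RNA in these clones but no KDM6A protein by western blot. The CRISPR control is a negative control per the labels, and in the study a clone that went through the CRISPR/Cas9 treatment without a deletion. The names of its 2 deposited files call them KO, and the labels were followed, so its values are given apart from both groups. There were 2 wt, 2 KO and 1 CRISPR control libraries at day 0 (D0, undifferentiated) and again at D15. E8 cells are a BL6 x *cast* female ES line, and their KO is 1 clone with the *Kdm6a* promoter deleted on both alleles. There were 2 wt and 2 KO E8 libraries labelled D7 and 2 of each labelled D15. The study's methods name other, earlier days for E8, so the days of the E8 libraries are those of the labels and are uncertain. ES cells were grown on mouse embryonic fibroblast feeders with LIF and serum, feeders were removed before use, and cells were differentiated as embryoid bodies (EBs) without LIF and plated after D7.

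*Tsix*-stop values are given in the counts-per-million unit (CPM), from estimated counts on the pseudo-129 genome, or per transcript length in the transcripts-per-million unit (TPM), and E8 values as deposited TPM. *Tsix*-stop libraries held 51091152 to 68796179 counts, and 9210225 to 12095548 reads overlapped a SNP. The depth behind the E8 values is unknown, since TPM keeps none. A gene was called where the false discovery rate (FDR) was 0.1 or less and the difference at least 2-fold, by edgeR for *Tsix*-stop and by limma on log2(TPM + 1) for E8. The labels do not say that replicates came from separate cultures. The study's methods name 2 biological replicates of *Tsix*-stop wt and the 2 KO clones. The p-values measure only the spread between these samples.

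The libraries were first checked against their labels. In E8, *Kdm6a* lay at 46.7 to 47.8 TPM in the wt and at 0.00578 to 0.0319 TPM in the KO libraries. In *Tsix*-stop cells *Kdm6a* was at 139 and 209 CPM in wt libraries against 130 and 48.4 CPM in KO at D0, and at 138 and 109 CPM in wt libraries against 93.3 and 28 CPM in KO at D15. The groups did not overlap, but the difference was not called on either day (FDR 0.303 and 0.189 by edgeR), and most of the transcript lies outside the deletion, so this level does not check the *Tsix*-stop labels. The CRISPR control had 128 and 93.4 CPM of *Kdm6a*, close to the higher KO library of each day. The labelled differentiation was not equal between the lines. In *Tsix*-stop wt the 10 pluripotency markers, summed, lay at 8270 to 8510 TPM at D0 and 4420 to 4930 TPM at D15, and the 8 fibroblast markers reached 2650 to 2980 TPM at D15. In the KO at D15 these sums were 7060 to 8550 TPM and 208 to 264 TPM, and in the CRISPR control 5030 TPM and 114 TPM. E8 wt libraries had 4950 to 5480 TPM of the pluripotency markers on both days, near the sums of *Tsix*-stop wt and the CRISPR control at D15. In E8 wt 7 of 8 fibroblast markers lay below 1 TPM, which goes against a label of differentiated cells. E8 KO libraries held 2460 to 3250 TPM of the pluripotency markers, and the visceral endoderm markers were at 1100 TPM at D7 and 235 TPM at D15 against 6.95 to 11.4 TPM in E8 wt. In bulk RNA fewer cells of a type and less RNA per cell cannot be told apart.

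Chromosomes 6 and 12, which carry *Tet3* and *Dnmt3a*, also set the KO apart from the wt libraries. In both *Tsix*-stop KO libraries on both days, reads of the *cast* alleles were nearly absent along a run of chromosome 6. On chromosome 12 the median share of reads with the SNPs of the pseudo-129 genome over 446 genes was 35.4% to 39.0% in wt, 34.9% to 38.3% in the CRISPR control and 53.0% to 58.2% in the KO libraries. In E8 the chromosome 12 median of the BL6 share was 12% to 13.4% in wt and 31.1% to 34.0% in KO libraries, against 17.2% to 19.8% over the other autosomes. For genes on both chromosomes in *Tsix*-stop, and on chromosome 12 in E8, genotype and allelic composition cannot be told apart. Chromosome 6 did not differ in this way in E8, with medians of 18.0% to 19.7% in wt and 18.6% to 20.7% in KO.

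The X chromosome set the E8 groups apart further. Its median BL6 share was 19.3% to 21.8% in the 4 E8 wt and 99.8% to 100% in the 4 E8 KO libraries, so the KO libraries held next to no reads of the *cast* X. The chromosome 19 median was 17.6% to 19.6% in E8 wt and 11.5% to 12.9% in E8 KO. In *Tsix*-stop KO reads of both X chromosomes were present, with a median of 49.7% to 50% at D0 and 41.5% to 45.7% at D15, against 48.8% to 49.9% and 30% to 32.0% in wt. No member is X-linked or on chromosome 19, but in every E8 comparison of KO with wt the *Kdm6a* deletion and the absence of *cast* X reads cannot be told apart.

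CpG is the substrate of these enzymes, so the CpG content of the members' own promoters was counted. Sequences are shown for *Tet2*, *Dnmt3a*, *Tet3* and *Dnmt3l*. The 250 bases before each annotated start of all 8 members were taken from RefSeq (GRCm38.p6), and every CpG is in capitals. *Tet2* has 51 CpGs in this window (chr3:133544391-133544640, minus strand), a number reached by 0.067% of 32851 promoters, whose median is 6. *Dnmt3a* has 38 CpGs before its first start (chr12:3806730-3806979, plus strand) and 15 before the internal start that gives its shorter form (chr12:3891494-3891743, plus strand). Another start of *Dnmt3a*, close to the first and not shown, has 40. *Tet3* has 17 (chr6:83441679-83441928, minus strand). *Dnmt3l*, the member whose level varied most, has 5 before its first start (chr10:78042037-78042286, plus strand) and 4 before its next one (chr10:78049592-78049841, plus strand), which 55.6% and 62.2% of promoters reach.
Tet2: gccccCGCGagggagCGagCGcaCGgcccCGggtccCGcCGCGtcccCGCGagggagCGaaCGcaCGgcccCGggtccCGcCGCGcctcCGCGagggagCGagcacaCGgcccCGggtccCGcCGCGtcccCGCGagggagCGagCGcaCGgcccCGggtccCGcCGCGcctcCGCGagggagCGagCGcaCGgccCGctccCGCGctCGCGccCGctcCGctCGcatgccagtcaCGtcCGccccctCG
Dnmt3a, first start: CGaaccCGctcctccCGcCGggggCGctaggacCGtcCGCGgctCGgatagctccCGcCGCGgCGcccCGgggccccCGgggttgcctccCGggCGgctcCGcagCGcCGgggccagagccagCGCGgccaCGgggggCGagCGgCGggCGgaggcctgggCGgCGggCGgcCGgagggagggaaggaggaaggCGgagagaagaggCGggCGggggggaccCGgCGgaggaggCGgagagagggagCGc
Dnmt3a, internal start: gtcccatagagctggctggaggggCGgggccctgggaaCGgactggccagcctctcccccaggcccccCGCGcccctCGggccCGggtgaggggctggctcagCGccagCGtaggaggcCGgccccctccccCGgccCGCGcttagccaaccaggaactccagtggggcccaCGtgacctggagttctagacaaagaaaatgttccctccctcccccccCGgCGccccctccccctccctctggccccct
Tet3: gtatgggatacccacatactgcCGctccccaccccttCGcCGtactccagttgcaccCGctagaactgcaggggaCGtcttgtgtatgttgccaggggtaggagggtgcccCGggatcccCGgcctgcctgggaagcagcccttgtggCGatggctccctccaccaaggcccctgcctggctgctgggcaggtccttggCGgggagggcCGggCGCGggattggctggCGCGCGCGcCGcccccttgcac
Dnmt3l, first start: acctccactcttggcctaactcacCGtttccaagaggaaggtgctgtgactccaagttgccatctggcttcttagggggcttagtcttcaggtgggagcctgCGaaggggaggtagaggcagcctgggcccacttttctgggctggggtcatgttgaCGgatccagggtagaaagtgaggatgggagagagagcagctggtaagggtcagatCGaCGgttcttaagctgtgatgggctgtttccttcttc
Dnmt3l, next start: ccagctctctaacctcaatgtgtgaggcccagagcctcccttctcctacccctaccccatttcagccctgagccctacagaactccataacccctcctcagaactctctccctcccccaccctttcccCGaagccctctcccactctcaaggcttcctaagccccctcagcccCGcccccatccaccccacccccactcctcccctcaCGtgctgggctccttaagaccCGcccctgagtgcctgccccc
*Dnmt3b* has 21 CpGs, *Tet1* has 15, *Uhrf1* has 10 and 30 before its 2 starts, and *Dnmt1* has 2, 7 and 26 before its 3 starts. No methylation was measured in these libraries.

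Per transcript length, *Uhrf1* was the most abundant member in undifferentiated *Tsix*-stop wt cells, with 692 ± 93.7 TPM (SD, n = 2, as for all means here). *Dnmt1* followed with 235 ± 46.3 TPM, then *Tet1* with 107 ± 24.4 TPM and *Dnmt3b* with 95.5 ± 2.04 TPM, and the last pair did not differ beyond its spread. *Dnmt3l* (51.7 ± 8.35 TPM), *Dnmt3a* (49.0 ± 5.58 TPM) and *Tet2* (35.3 ± 7.45 TPM) were lower, with *Dnmt3l* and *Dnmt3a* within their spread, and *Tet3* was lowest with 3.25 ± 0.129 TPM. At D15 the order was another, with *Dnmt3l* first at 321 ± 10.1 TPM, *Uhrf1* at 177 ± 1.12 TPM and *Dnmt1* at 167 ± 2.2 TPM. *Dnmt3l* also led in every E8 group, from 383 ± 11.9 TPM in wt at D7 to 160 ± 0.612 TPM in KO at D15. *Tet3* was the lowest member in E8 as well, at 3.89 ± 0.106 TPM in wt at D15. The lines were processed to different units and were not tested against each other.

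**Figure D1:**
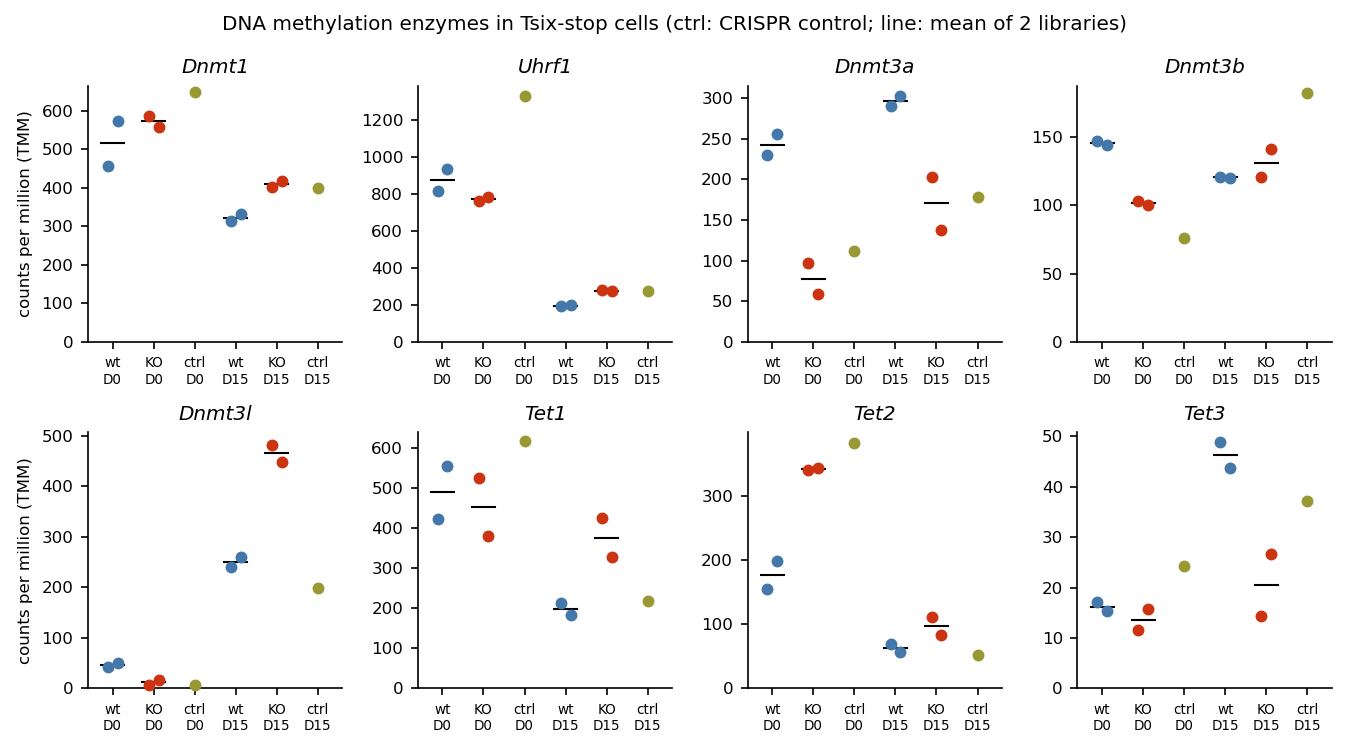
Level of each member in every *Tsix*-stop library (CPM, linear axes from 0), by genotype and day, with the 2 wt, 2 KO and 1 CRISPR control libraries of each day as points. *Uhrf1* and *Tet2* are lower at D15 than at D0 in every genotype, and *Dnmt3l* is higher.

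Differentiation of *Tsix*-stop wt cells moved the members apart. Of all 13121 genes tested, 37.8% were called between wt D15 and D0, 24.2% higher and 13.6% lower, and 5 of the 8 members were called, 2 higher and 3 lower. *Dnmt3l* rose and *Tet3* rose, while *Tet1*, *Tet2* and *Uhrf1* fell. In the KO cells 27.6% of genes were called between the days, 20% higher and 7.66% lower, and 4 members were called, with *Dnmt3a* and *Dnmt3l* higher and *Tet2* and *Uhrf1* lower. The median log2 difference of the 8 members was -0.45 in wt and 0.07 in KO, against 0.02 and 0.00 over all genes tested.

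Of the maintenance pair, *Uhrf1* fell steeply. It was at 816 and 937 CPM in wt at D0 and at 192 and 201 CPM at D15, a difference of -2.13 on the log2 scale (SE 0.11, FDR 3.37e-06 by edgeR). In the KO it was at 763 and 784 CPM at D0 and 279 and 275 CPM at D15 (log2 difference -1.47, FDR 2.38e-05), and in the CRISPR control at 1330 and 277 CPM. All D15 libraries lay below all D0 libraries, and at D15 the KO lay above the wt with no overlap, by 0.49 on the log2 scale (SE 0.11, FDR 0.0112, 1.4-fold and so not called). The difference between the 2 genotypes' changes was 0.67 (SE 0.16, FDR 0.0179), below the 2-fold limit. *Dnmt1*, the maintenance enzyme itself, was at 458 and 575 CPM in wt at D0 and 313 and 332 CPM at D15, 1.58-fold lower (FDR 0.00167). It was at 588 and 558 CPM in KO at D0 and 403 and 417 CPM at D15, 1.38-fold lower (FDR 0.0127), and was not called in any comparison. The summed TPM of 12 proliferation markers moved the same way, from 4820 to 5120 at D0 to 2800 to 2890 at D15 in wt and from 4150 to 4900 to 3270 to 3700 in KO. Their part in the levels of *Uhrf1* and *Dnmt1* was not tested.

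*Dnmt3l*, the cofactor of the de novo enzymes, had the widest range of any member. In wt it was at 41.9 and 49.9 CPM at D0 and 240 and 261 CPM at D15, a 5.55-fold rise (FDR 0.000154). In the KO libraries it was at 7.44 and 17.3 CPM at D0 and 483 and 449 CPM at D15, a 38.1-fold rise (log2 5.25, SE 0.36, FDR 1.55e-05). Without 1 library at a time, this log2 difference ranged from 4.77 to 5.98, and that between KO and wt at D0 from -2.62 to -1.41. That between the changes ranged from 2.3 to 3.53, and each of these 3 remained called. The KO thus lay below wt at D0, by 1.89 on the log2 scale (SE 0.32, FDR 0.00804), and above it at D15, by 0.88 (SE 0.3, FDR 0.0504, 1.85-fold and not called), with no overlap on either day. The difference between the changes was 2.78 (SE 0.44, FDR 0.00428), the largest of the 8 members, where 17.1% of all genes were called in this interaction (6.62% higher, 10.5% lower). *Tet1* was the other member called there. The CRISPR control had 6.34 CPM at D0, below both KO libraries, and 199 CPM at D15, below both wt libraries. With these 2 libraries counted with the wt, neither the D0 difference (log2 -1.4, FDR 0.469) nor the interaction (2.4, FDR 0.18) passed the FDR limit. *Aire* overlaps *Dnmt3l* on the opposite strand and moved with it, at 8.92 and 3.64 CPM in wt D0, 57.8 and 70.0 CPM in wt D15, 3.5 and 0.81 CPM in KO D0 and 109 and 93.3 CPM in KO D15. How the counting treated strand is not given in the sources used here, so reads of the shared stretch cannot be told apart.

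*Dnmt3a*, a de novo methyltransferase, was lower in the KO on both days. At D0, 8.12% of all genes were called between KO and wt (3.11% higher, 5.01% lower), and *Dnmt3a* and *Dnmt3l* were the 2 members called, both lower. *Dnmt3a* was at 230 and 256 CPM in wt libraries against 96.9 and 58.9 CPM in KO at D0, a fall of 3.12-fold (log2 -1.64, SE 0.25, FDR 0.00562). At D15 it was at 291 and 303 CPM in wt libraries against 203 and 138 CPM in KO, 1.75-fold lower (log2 -0.81, SE 0.25, FDR 0.0342) and so not called. Within wt the level hardly moved between the days (1.24-fold, FDR 0.278), and within KO it rose 2.21-fold (FDR 0.00428), with 0.82 or 0.83 on the log2 scale and no call without KO D0 replicate 2 or KO D15 replicate 1. The CRISPR control, with 112 CPM at D0 and 178 CPM at D15, lay closer to the KO than to the wt libraries on both days. With it counted as wt, the D0 difference was -1.35 with FDR 0.249. *Dnmt3aos*, an antisense gene inside *Dnmt3a*, overlaps it on the other strand.

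*Dnmt3b*, the other de novo enzyme, was not called in any *Tsix*-stop comparison of levels. It was at 147 and 144 CPM in wt libraries against 103 and 100 CPM in KO at D0 (log2 -0.52, SE 0.11, FDR 0.0163), and at 121 and 120 CPM in wt libraries against 121 and 141 CPM in KO at D15 (log2 0.11, SE 0.11, FDR 0.433). The groups were apart at D0 and met at D15, and the interaction of genotype and day was 0.63 (SE 0.15, FDR 0.0189, 1.55-fold). The CRISPR control spanned the whole range, with 75.8 CPM at D0 and 182 CPM at D15.

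The TET genes did not move together. *Tet1* and *Tet2* are known to be the abundant TETs of ES cells, and *Tet3* to be more widely used after differentiation. In wt, *Tet1* was at 424 and 557 CPM at D0 and 214 and 183 CPM at D15, a 2.43-fold fall (log2 -1.28, SE 0.21, FDR 0.000635). In the KO it was at 525 and 381 CPM at D0 and 426 and 328 CPM at D15 (log2 -0.25, FDR 0.328), so the 2 days overlapped. The interaction was called, at 1.03 (SE 0.29, FDR 0.0359, 2.04-fold). It lost its call without any 1 of 4 libraries (wt D0 replicate 2, 0.83; wt D15 replicate 2, 0.94; KO D0 replicate 2, 0.84; KO D15 replicate 1, 0.85).

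*Tet2* fell in both genotypes, from 155 and 199 CPM to 69.4 and 57.2 CPM in wt (2.75-fold, FDR 0.000123) and from 341 and 344 CPM to 111 and 83.8 CPM in KO (3.48-fold, FDR 8.24e-05). Its level was higher in KO than in wt on both days without reaching 2-fold, by 0.95 at D0 (SE 0.18, FDR 0.0118) and 0.61 at D15 (SE 0.18, FDR 0.0285) on the log2 scale. The CRISPR control was at 383 CPM at D0, above all other libraries, and at 52.8 CPM at D15, below all others.

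*Tet3* rose 2.9-fold in wt (log2 1.54, SE 0.27, FDR 0.000959), from 17.1 and 15.3 CPM to 48.9 and 43.8 CPM. In the KO it was at 11.6 and 15.7 CPM at D0 and 14.4 and 26.7 CPM at D15 (log2 0.60, SE 0.27, FDR 0.0842), and the days overlapped. At D15, where 14.9% of all genes were called between KO and wt (3.83% higher, 11.1% lower), *Tet3* was the 1 member called. It was lower in KO by 1.19 on the log2 scale (SE 0.27, FDR 0.0109), and without KO D15 replicate 1 the difference was -0.79 and not called. The CRISPR control had 24.2 and 37.2 CPM. The median log2 difference of the members between KO and wt at D15 was 0.41, against 0.00 over all genes, and 6 of 8 were above 0.

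**Figure D2:**
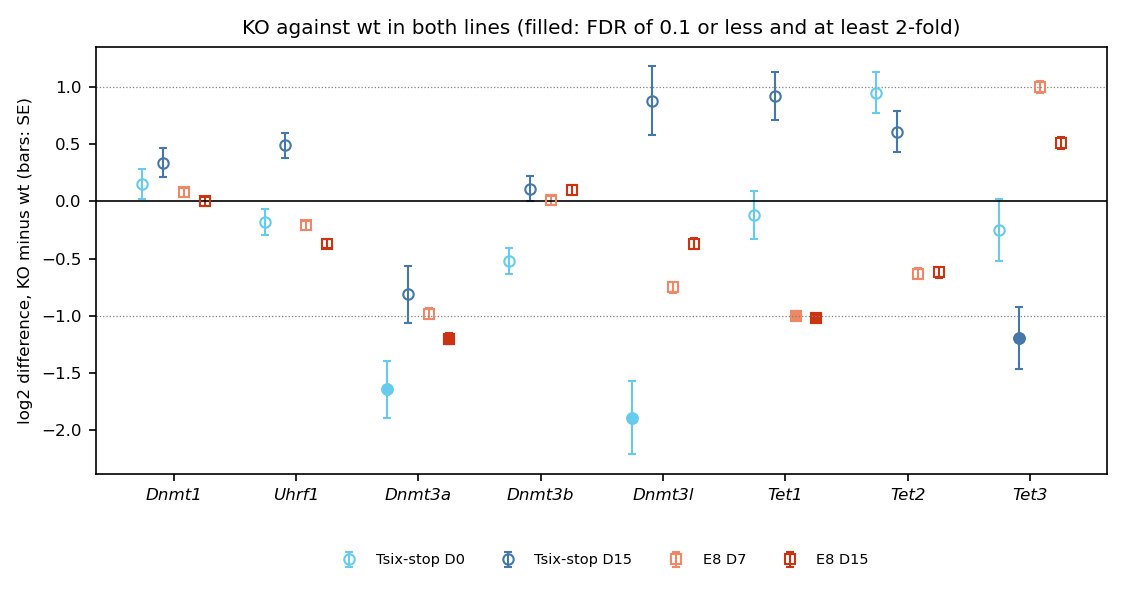
Log2 difference of KO minus wt for each member (vertical axis, bars are 1 standard error), for *Tsix*-stop at D0 and D15 and E8 at D7 and D15, with filled symbols where a member was called and dotted lines at 2-fold. *Dnmt3a* lies below 0 in all 4 comparisons, and *Tet1*, *Tet2*, *Tet3*, *Dnmt3l* and *Uhrf1* lie on opposite sides of 0 in the 2 lines at D15.

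In E8 cells most members lay lower in KO than in wt, and all calls were lower. Of 12452 genes tested, 17.5% were called between KO and wt at D7 (11.4% higher, 6.18% lower) and 10.7% at D15 (7.67% higher, 3.08% lower). At D7 *Tet1* was the 1 member called, and at D15 *Tet1* and *Dnmt3a* were the 2, all lower. The median log2 difference of the members was -0.42 at D7 and -0.37 at D15, against 0.10 and 0.09 over all genes tested. Rescaling the libraries to the same median moved these 2 values over all genes to -0.11 and -0.08, called *Dnmt3a* at D7 (-1.2) and put *Dnmt1* and *Dnmt3b* below 0 at D7 (-0.14 and -0.21). E8 replicates were close, with a median difference of 0.0399 to 0.0688 on the log2 scale between the 2 libraries of a group, and all come from 1 wt line and 1 KO clone. The study's methods name 1 wt control and 1 KO clone for each E8 day and no replicates. The 2 libraries of a group may thus not be separate cultures. The E8 SEs and FDRs do not measure the spread between cultures or clones.

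*Tet1* was at 54.6 and 53.6 TPM in wt libraries against 26.9 and 26 TPM in KO at D7, and at 60.0 and 60.6 TPM in wt libraries against 29.2 and 29.4 TPM in KO at D15. The log2 difference was -1.0 at D7 (SE 0.032, FDR 1.05e-07 by limma) and -1.02 at D15 (SE 0.032, FDR 1.85e-07). The call at D7 rests on a difference at the 2-fold limit, and without wt replicate 1 or KO replicate 2 it was -0.99 or -0.98. *Dnmt3a* was at 65.3 and 61.9 TPM in wt libraries against 32.0 and 31.6 TPM in KO at D7 (1.97-fold lower, FDR 9e-07, just below the limit). At D15 it was at 62.9 and 68.8 TPM in wt libraries against 28 and 28.1 TPM in KO, a fall of 2.3-fold (log2 -1.2, SE 0.048, FDR 5.97e-07).

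*Tet3* differed the other way, with 4.09 and 3.75 TPM in wt libraries against 8.92 and 8.72 TPM in KO at D7. Its difference of 1.00 on the log2(TPM + 1) scale (SE 0.055, FDR 1.63e-06) was just below the limit, and this scale understates the change of a gene as low as *Tet3*. At D15 it was at 3.81 and 3.96 TPM in wt libraries against 5.93 and 5.95 TPM in KO (0.51, SE 0.055, FDR 0.000101). *Tet2* was at 16.2 and 15.9 TPM in wt libraries against 10.5 and 9.59 TPM in KO at D7, and at 19.3 and 19.2 TPM and 12.2 and 12.1 TPM at D15 (log2 -0.63 and -0.62). For these TET genes the KO and wt libraries did not overlap on either day.

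*Dnmt3l* was at 391 and 374 TPM in wt libraries against 230 and 225 TPM in KO at D7 (log2 -0.75, FDR 3.99e-06), and at 197 and 217 TPM and 159 and 160 TPM at D15 (-0.37, FDR 0.000289). *Uhrf1* had a mean of 148 ± 2.03 TPM (SD, n = 2) in wt and 127 ± 2.84 TPM in KO at D7 (limma, -0.21, FDR 0.00172), and was at 165 and 177 TPM and 132 and 132 TPM at D15 (-0.37, FDR 0.000114). Both were lower in every KO library than in every wt library of the same day, by less than 2-fold. *Dnmt1* stayed between 114 and 128 TPM in all 8 libraries, with differences of 0.08 (SE 0.038, FDR 0.0772) and 0.00 (SE 0.038, FDR 0.979). *Dnmt3b* was at 107 and 104 TPM in wt libraries against 108 and 105 TPM in KO at D7 (0.01, SE 0.04, FDR 0.807), and at 50.1 and 53.9 TPM and 55.7 and 56.1 TPM at D15 (0.10, SE 0.04, FDR 0.0494).

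Between D7 and D15 the E8 members changed by less than 2-fold in each genotype, except *Dnmt3b* in wt. In wt, where 1.41% of genes were called (0.586% higher, 0.819% lower), *Dnmt3b* fell 2.01-fold (log2 -1.01, SE 0.04, FDR 8.33e-06) and was the 1 member called. Without wt D7 replicate 1 or wt D15 replicate 1 the fall was 0.99 or 0.96 on the log2 scale, under the limit. *Dnmt3l* was 1.85-fold lower at D15 in wt (log2 -0.88, SE 0.049, FDR 2e-05 by limma), at 383 against 207 TPM on average, and not called. In KO, where 6.11% were called (3.41% higher, 2.7% lower), none of the 8 members was called by limma, with *Dnmt3b* at -0.92 and *Dnmt3l* at -0.51. The interaction called 7.25% of genes (3.89% higher, 3.36% lower) and none of the members by limma. In it *Tet3* had -0.49 (SE 0.078, FDR 0.00129) and *Dnmt3l* 0.38 (SE 0.069, FDR 0.00255).

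**Figure D3:**
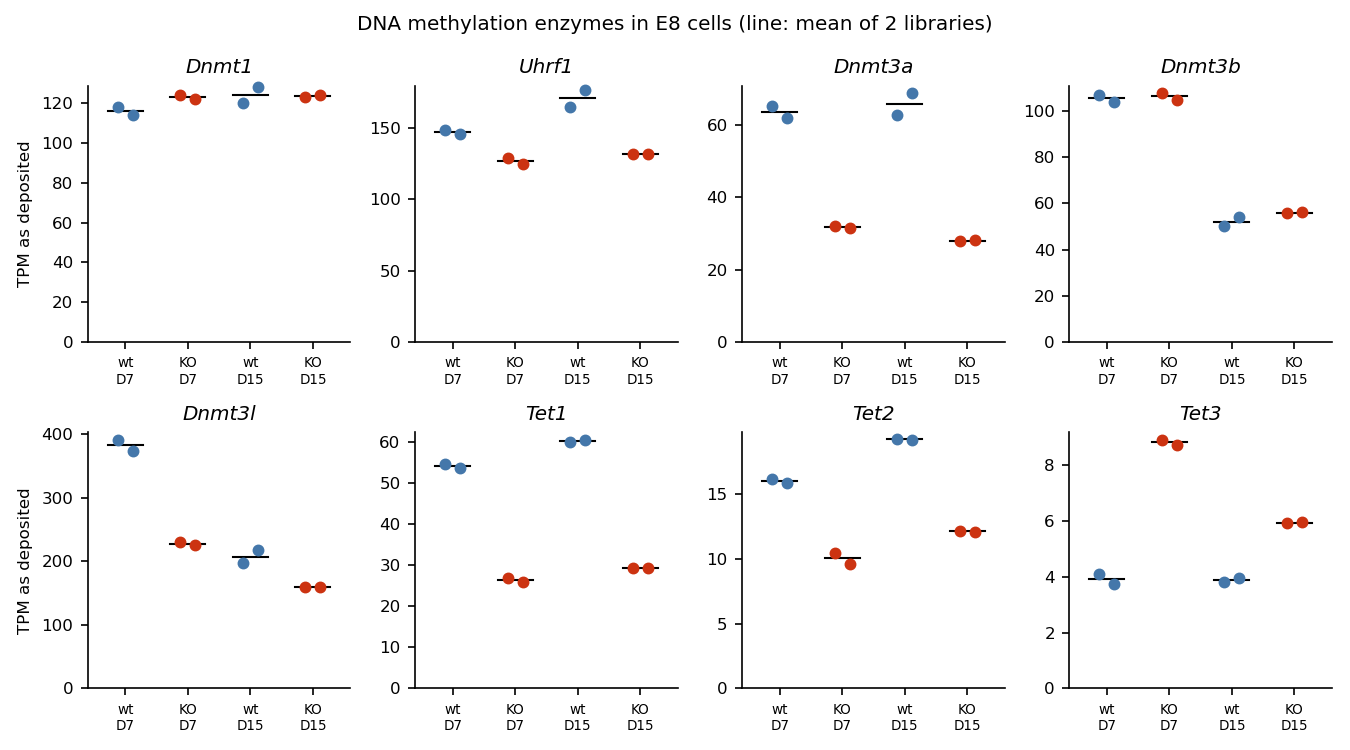
Level of each member in every E8 library (TPM, linear axes from 0), by genotype and day, 2 libraries a group. *Dnmt3a*, *Tet1* and *Tet2* lie lower in KO than in wt on both days, *Tet3* lies higher, and *Dnmt3b* is lower at D15 than at D7 in both genotypes.

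The 2 lines were set side by side at D15, the day that labels of both carry. *Dnmt3a* was lower in KO in both, by 0.81 in *Tsix*-stop and 1.2 in E8 on the log2 scale. In *Tsix*-stop this was not called, and the CRISPR control (178 CPM) lay between the KO libraries (203 and 138 CPM). Chromosome 12 shares differed between KO and wt in both lines, so genotype and allelic composition cannot be told apart for *Dnmt3a*. *Tet1* was 0.92 higher in the *Tsix*-stop KO and 1.02 lower in the E8 KO, and *Tet2* was 0.61 higher and 0.62 lower. *Tet3* was 1.19 lower in the *Tsix*-stop KO and 0.51 higher in the E8 KO. In the *Tsix*-stop KO it lies in the run of chromosome 6 where *cast* reads were nearly absent. The marker sums of the 2 lines differed in the same comparisons, with more pluripotency marker RNA in the *Tsix*-stop KO than in its wt and less in the E8 KO than in its wt. The difference between the lines was not tested, since they differ in unit, in cross and in the kind of deletion, and *cast* X reads were nearly absent from the E8 KO but not from the *Tsix*-stop KO.

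SNPs between the parental genomes gave the allele each read came from. In *Tsix*-stop libraries the ratio of reads with the SNPs of the pseudo-129 genome (pseudo-129 reads) to those with *cast* SNPs was tested at an FDR of 0.1, with no limit on the fold. Between KO and wt 10.3% of 12268 genes were called at D0 (8.0% higher, 2.26% lower) and 17.9% at D15 (15.2% higher, 2.75% lower). Of the members, 5 were called at D0, with a higher pseudo-129 share in KO for *Dnmt3a*, *Tet1* and *Tet3* and a lower one for *Dnmt3b* and *Uhrf1*, and 2 were called at D15, *Dnmt3a* and *Tet3*.

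*Tet3* was read almost only from its pseudo-129 allele in the KO. The pseudo-129 share was 51.0% (95% Wilson interval 44.2 to 57.8, 204 SNP reads) and 56.0% (48.2 to 63.5, 159 reads) in wt at D0, and 58.4% and 61.9% at D15. In the KO it was 98.3% (94.1 to 99.5, 119 reads) and 97.9% (94.7 to 99.2, 191 reads) at D0, and 100% (97.4 to 100, 144 reads) and 98.7% (96.3 to 99.6, 237 reads) at D15. The CRISPR control had 46.9% and 52.9%. Intervals cover counting error only. The log2 difference of the ratio was 5.42 at D0 (SE 0.4, FDR 1.69e-08 by edgeR) and 6.29 at D15 (SE 0.42, FDR 4.89e-09). The D15 value rests on 0 and 3 *cast* reads in the KO libraries and was 5.65 without KO replicate 1 and 9.68 without KO replicate 2, so its size is poorly determined.

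*Tet3* lies at chr6:83362373-83459084 (mm10, minus strand), inside the run of chromosome 6 described above. From *Cntnap2* to *Prickle2*, chr6:45059357-92706155 or 47.6 Mb, 197 of 201 genes had a pseudo-129 share of 90% or more in KO. The bounds of this run were chosen after its values were seen. They were drawn by a running median of the KO share, so the high count follows from the bounds. Genes with a wt share of 90% or more were left out. The median share over these genes was 63.5% in wt, 100% in KO and 50.6% in the CRISPR control. Over the other 361 genes of the chromosome kept by the same rule it was 46.7%, 52.7% and 51.9%. Of 68 genes within 5 Mb of *Tet3*, 65 were at 90% or more in KO at D0 and 66 at D15, against 2 and 6 in wt and 1 and 1 in the CRISPR control. Scaled to all counts of the library (CPM), at D15 *cast* reads of *Tet3* were at 3.67 and 3.24 CPM in wt and 0.0 and 0.0587 in KO, while pseudo-129 reads were at 5.16 and 5.26 CPM in wt and 2.56 and 4.58 in KO. Over 76 genes within 5 Mb the median log2 difference of levels between KO and wt was -0.50 at D0 and -0.23 at D15, and at D15 12 were called lower and 1 higher. *Tet3* itself had -0.25 and -1.19.

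**Figure D4:**
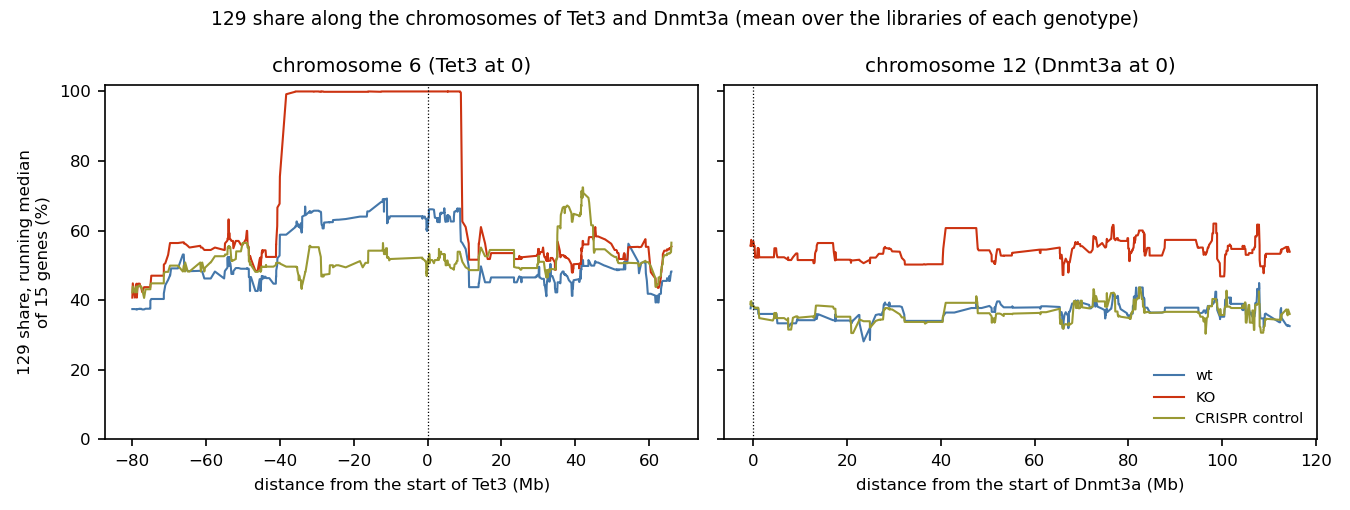
Share of pseudo-129 reads (%, running median of 15 genes, mean over the libraries of each genotype) against the distance in Mb from the start of *Tet3* on chromosome 6 and of *Dnmt3a* on chromosome 12. The KO line lies at 100% over a run of 47.6 Mb around *Tet3* and above the wt and CRISPR control lines along the whole of chromosome 12.

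*Dnmt3a* (chr12:3806007-3914443, mm10, plus strand) had more *cast* than pseudo-129 reads in wt. Its pseudo-129 share was 27.5% (25.3 to 29.9, 1432 reads) and 26.9% (24.7 to 29.2, 1504 reads) in wt and 50.2% (46.3 to 54.0, 644 reads) and 46.0% (41.5 to 50.5, 472 reads) in KO at D0, a log2 difference of the ratio of 1.32 (SE 0.11, FDR 8.73e-08 by edgeR). The wt libraries had 34.7% and 34.5% at D15 and the KO libraries 42.3% and 44.7% (0.53, SE 0.093, FDR 0.000553), and in the CRISPR control 29.0% and 29.8%. The lower level in KO at D0 was thus mostly that of *cast* reads, at 15.1 and 17.8 CPM in wt and 5.14 and 3.94 in KO. The pseudo-129 reads were at 5.73 and 6.52 CPM in wt and 5.17 and 3.35 in KO. At D15 reads of both alleles were lower in KO, with pseudo-129 reads at 12.7 and 12.9 CPM in wt and 9.82 and 7.48 in KO. The *cast* reads were then at 23.9 and 24.4 CPM in wt and 13.4 and 9.24 in KO. In the CRISPR control both alleles were low at D0, with 3.22 and 7.87 CPM from pseudo-129 and *cast*.

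The 26 genes within 5 Mb of *Dnmt3a* moved in share as the chromosome did, with medians of 37.8% and 38.0% in wt and 59.9% and 55.5% in KO at D0. Over 466 genes of chromosome 12 the median log2 difference of levels between KO and wt was -0.16 at D0 and -0.14 at D15. On the other autosomes it was -0.01 and 0.0. The part of the shift in shares in the level of *Dnmt3a* was not tested. Of 28 genes tested within 5 Mb, none was called lower and 1 higher at D0 by edgeR, against 5.01% and 3.11% of all genes. At D15, 3 were called lower and none higher, against 11.1% and 3.83% of all genes. The median log2 differences of these 28 genes were 0.01 and -0.07 on the 2 days, and those of *Dnmt3a* were -1.64 and -0.81. In E8 the *cast*-SNP value of *Dnmt3a* was 57.2 to 66.1 TPM in the 4 wt and 14.7 to 18.2 TPM in the 4 KO libraries, and its BL6-SNP value was 3.78 to 4.86 TPM and 4.42 to 4.81 TPM. Each E8 allele column was scaled to the same total separately, so its shares compare libraries but do not give the true ratio of the alleles. In E8 the median log2 difference of 26 genes within 5 Mb was 0.09 at D7 and 0.07 at D15, against -0.98 and -1.2 for *Dnmt3a*.

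The other members had reads of both alleles in every library. *Tet1* had 56.4% and 56.5% of pseudo-129 reads in wt and 62.4% and 61.9% in KO at D0 (log2 0.34, FDR 0.00262 by edgeR). *Uhrf1* had 64.9% and 56.5% in wt and 49.6% and 53.3% in KO at D0 (-0.55, FDR 0.00376), with wt replicates that differed more than the KO replicates, and 58.3% to 60.4% in all wt and KO libraries at D15. *Dnmt3b* had 49.7% and 51.0% in wt and 44.3% and 44.8% in KO at D0 (-0.34, FDR 0.022), and the call was lost without wt D0 replicate 2 (FDR 0.155) or KO D0 replicate 1 (FDR 0.104). The CRISPR control at D0 had 51.2% for *Uhrf1* and 42.2% for *Dnmt3b*, on the side of the KO. Across the days, 28.5% of genes were called in wt (11.5% higher, 17.1% lower) and 16.3% in KO (7.61% higher, 8.68% lower). Of the members, *Dnmt3a* (0.50) and *Dnmt3l* (-0.49) were called in wt, and *Dnmt3b* (0.31) and *Uhrf1* (0.45) in KO. The calls of *Dnmt3l* (without wt D0 replicate 1, FDR 0.12), *Uhrf1* (without KO D0 replicate 1, 0.177) and *Dnmt3b* (without KO D0 replicate 1, 0.128, or KO D15 replicate 2, 0.194) each depended on 1 library. *Dnmt3l* went from 53.0% and 50.2% to 44.0% and 42.2% of pseudo-129 reads in wt as its level rose, and was at 40.6% and 40.4% in KO at D15. Its share in KO at D0 rests on 84 and 221 SNP reads.

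**Figure D5:**
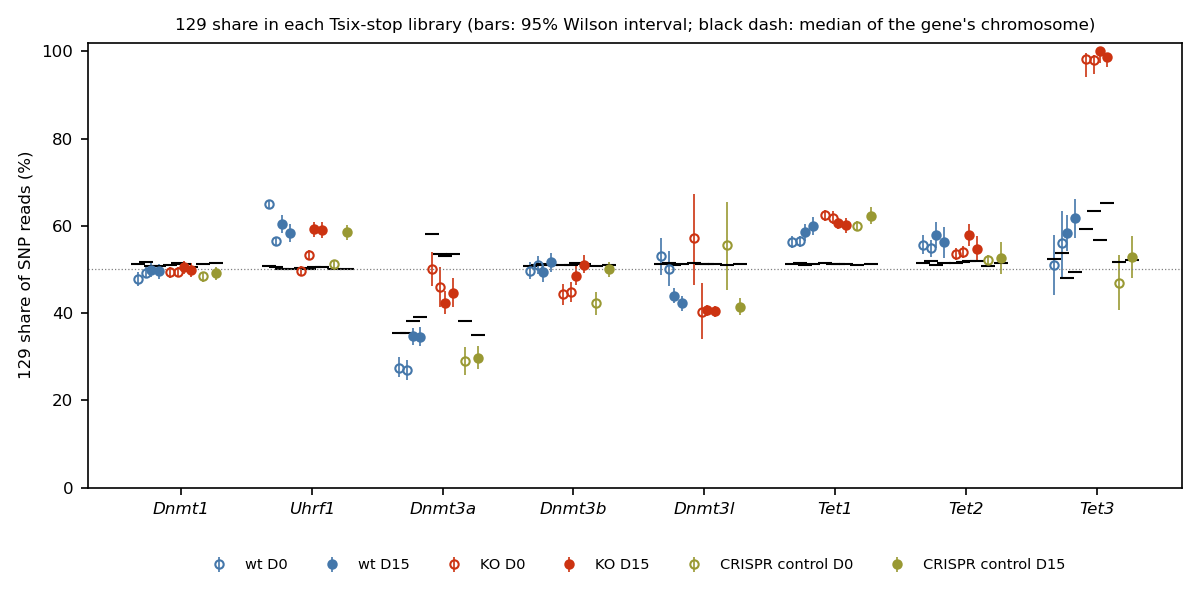
Share of pseudo-129 reads among SNP reads (%) of each member in every *Tsix*-stop library, with 95% Wilson intervals that cover counting error only, and a dotted line at 50%. *Tet3* lies at 97.9% to 100% in the 4 KO libraries, and *Dnmt3a* lies higher in KO than in wt on both days.

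Genes that work with the members were followed as lists. Among 19 tested genes that recruit or stabilize methyltransferases, 10 were called lower between wt D15 and D0 and none higher by edgeR, with a median log2 difference of -1.09. Over all genes tested 13.6% were called lower and 24.2% higher, with a median of 0.02. *Hells*, a remodeler needed for methylation of repeats, fell by 2.14 on the log2 scale, *Prdm14*, a repressor of the de novo enzymes in ES cells, by 1.69, and *Pcna*, the replication clamp that binds DNMT1, by 1.66. In KO 3 fell and 1 rose between the days, against 7.66% and 20% of all genes. *Dppa3*, which keeps UHRF1 off chromatin, was at 38.3 and 37.3 CPM in wt libraries against 23.7 and 11 CPM in KO at D0 (log2 -1.12, FDR 0.0429), and at 16.8 and 17.6 CPM and 41.2 and 52.3 CPM at D15 (1.43, FDR 0.00828). The D0 call was lost without either wt D0 library or KO D0 replicate 2 (-0.66), and without KO D0 replicate 1 the difference was -1.78. The interaction of *Dppa3* was 2.56 (SE 0.43, FDR 0.00536 by edgeR), or 3.21 without KO D0 replicate 1. It was on the side of that of *Dnmt3l*. The CRISPR control had 19.8 CPM of *Dppa3* at D0 and 74.4 CPM at D15. In E8, *Uhrf2*, the paralog of *Uhrf1*, was the 1 gene of this list called on both days, at 36.0 and 36.3 TPM in wt libraries against 82.6 and 81.1 TPM in KO at D7 (log2 1.16) and 1.25 higher at D15. *Uhrf2* lies on chromosome 19, whose shares differed between these groups. *Dppa3* (-1.36) and *Prdm14* (-1.01) were lower in the E8 KO at D7, and *Prdm14* fell under the limit without wt D7 replicate 1 (-0.99) or KO D7 replicate 2 (-0.95).

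Of 10 readers of methylated DNA, *Zbtb4* (-1.43) was the 1 called between *Tsix*-stop KO and wt at D15, and none was called at D0. Over all genes tested 11.1% were called lower and 3.83% higher at D15, and 8.12% were called at D0. Between wt D15 and D0, *Zbtb4* (2.44) and *Mbd2* (1.99) rose and *Mbd3* fell by 1.00, under the limit without wt D0 replicate 2 (-0.98) or wt D15 replicate 1 (-0.84). Of all genes, 24.2% were called higher and 13.6% lower between these days. In the E8 KO at D7, *Mbd2* (1.84), *Mbd1* (1.32) and *Zbtb4* (1.29) were higher, and no reader was called at D15 by limma. Over all genes 11.4% were called higher and 6.18% lower at D7, and 10.7% were called at D15. Of 13 genes that remove oxidized methylcytosine or repair the gap, 4 rose and 2 fell between wt D15 and D0, shares near the 24.2% and 13.6% of all genes. Among them were *Gadd45g*, a stress-induced factor linked to demethylation, at 4.05, the glycosylase *Neil2* at 2.70, and the endonuclease *Apex1* at -1.93. *Gadd45g* was lower in the *Tsix*-stop KO on both days (-1.44 and -1.59). The D0 call (FDR 0.0776 by edgeR) was lost without wt D0 replicate 1, either wt D15 library or KO D0 replicate 2 (-0.85), and without KO D0 replicate 1 the difference was -2.43. The gene was higher in the E8 KO on both days (1.65 and 1.39).

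Of 13 TET partners and cofactor genes, none was called between *Tsix*-stop KO and wt at D0 by edgeR, and at D15 *Sall1*, a zinc finger factor, was higher (log2 1.26, FDR 0.00125). Over all genes tested 8.12% were called at D0, and 3.83% were called higher at D15. In the E8 KO *Nanog* (-1.38) and *Prdm14* (-1.01) were lower at D7, and *Sall1* was lower (-1.29) and *D2hgdh* higher (1.07, or 0.99 without wt D15 replicate 1) at D15. Of all genes, 6.18% were called lower at D7, and 3.08% lower and 7.67% higher at D15. Of 20 genes of methyl donor metabolism in *Tsix*-stop, 10 fell and 1 rose between wt D15 and D0, against 13.6% and 24.2% of all genes, among them *Mat2a*, which makes S-adenosylmethionine, by 2.36, and *Tdh*, which feeds threonine into it in mouse ES cells, by 2.30. None was called between KO and wt at D0 by edgeR, where 8.12% of all genes were. At D15 2 were called higher, *Gnmt* (1.39) and *Amd1*, where 3.83% of all genes were called higher. *Gnmt* was not called without wt D15 replicate 1 (FDR 0.171). The call of *Amd1* rests on 1 library and the gene has near-identical copies, so it is uncertain. In the E8 KO, *Gnmt* was lower at D7 (-2.26) and *Mthfd2* at D15 (-1.51), days on which 6.18% and 3.08% of all genes were called lower. *Mthfd2* lies within 5 Mb of *Tet3*.

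Germline genes that promoter methylation is known to silence formed a further list. Of 13 tested in *Tsix*-stop, 1 was called higher in KO at D0, *Taf7l* (1.57), and 5 were called higher and none lower at D15, with a median of 0.75 against 0.00 over all genes. Over all genes tested 3.11% were called higher at D0 and 3.83% at D15. *Taf7l* was not called without wt D0 replicate 2 (FDR 0.103) or KO D0 replicate 1 (0.95, FDR 0.105). They included genes of the synaptonemal complex and the meiotic chromosome axis. *Sycp2* was at 1.78 and 1.07 CPM in wt libraries against 5.99 and 4.64 CPM in KO (log2 1.88, FDR 0.00633), *Hormad1* at 3.61 and 2.35 CPM and 7.01 and 12.8 CPM (1.71, FDR 0.115 without wt D15 replicate 2), and *Sycp3* at 12.4 and 7.19 CPM and 33.3 and 28.4 CPM (1.65). The CRISPR control was at 3.29, 5.89 and 26.2 CPM for these 3 genes at D15, above all wt libraries. In the E8 KO the list went the other way, with 6 of 11 tested genes lower at D7 and 4 at D15 and none higher by limma, against 6.18% and 3.08% of all genes called lower. *Dazl*, a germ cell RNA-binding protein, was at 17.3 and 19.8 TPM in wt libraries against 2.28 and 3.14 TPM in KO at D7 (-2.40), and *Mael*, a factor of transposon silencing, at 20.3 and 18.8 TPM and 4.65 and 4.42 TPM (-1.89). *Sycp3* differed by -1.82 at D7.

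The genes whose level ran closest to each member over the 10 *Tsix*-stop libraries were sought among 9818 genes, by the root mean square difference of centred log2 CPM. *Tubgcp3* (0.0682) was closest to *Dnmt1*, *Cenpb* (0.168) to *Uhrf1*, *Mvd* (0.105) to *Dnmt3b*, *Zw10* (0.132) to *Tet1* and *Tub* (0.206) to *Tet2*. The pluripotency factor *Tfcp2l1* (0.229) was also among the 3 nearest to *Tet2*. *Dnmt3a* (*Ackr3*, 0.287) and *Dnmt3l* (*Atp6v0a4*, 0.436) had no gene as near, while their own root mean square spreads were 0.728 and 2.23. Of the 3 nearest to *Tet3*, *Gng12* (0.205) and *Tmem43* (0.247) lie on chromosome 6 as *Tet3* does, and *Mapkapk2* (0.247) lies on chromosome 1.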

How the data were processed

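Total RNA-seq was done on 10 *Tsix*-stop and 8 E8 libraries (poly(A)-selected, single-end reads). The authors mapped reads with bowtie2 to 129 and *cast* pseudogenomes built on mm10, and the submitters' processing notes name Bowtie2 2.4.5 and TopHat2 2.1.1. The *Tsix*-stop files deposited by the authors hold estimated counts per gene, not normalized, of which 7.1% were not whole, and the E8 files hold TPM made by the authors, in which 537 repeated symbols were summed here. The annotation and strand setting are not given in the sources used here.

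Members and gene lists were chosen with earlier results of these data known. Groups came from the labels. *Tsix*-stop counts were rounded and tested with edgeR 4.0.16 (R 4.3.3, TMM, quasi-likelihood, 8 wt and KO libraries in 1 fit, at least 2.5 CPM in 2 libraries). E8 values were tested with limma 3.58.1 on log2(TPM + 1) with trend and the same minimum in TPM. All p-values are Benjamini-Hochberg adjusted over all genes tested, and the interaction is the KO against wt difference at the later day minus that at the earlier day. Allele ratios were tested with edgeR on 129 and *cast* reads with the library as block, at a mean of 20 SNP reads. With 2 against 2 libraries an exact permutation test cannot go below p = 0.333, so none was used. TPM of *Tsix*-stop used exon lengths from GENCODE. From each list the 3 largest rises and 3 largest falls among called genes were eligible to be named. Scripts were tested on simulated data. Alternatives were DESeq2 1.42.0, other scalings, filters and pseudocounts, counts on the *cast* genome, adding the CRISPR control to wt, a replicate block and leaving out each library. No value column was left unmapped. Replicate libraries of *Tsix*-stop differed by 40.3 to 83.3 times the counting noise (chi-square per degree of freedom), so none was a duplicate.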

Additional observations from a re-analysis of the deposited data

Results flagged for a closer look

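In *Tsix*-stop cells the difference between KO and wt itself differed between the days for 2 members by the interaction test of edgeR. For *Dnmt3l* the difference of differences was 2.78 on the log2 scale (FDR 0.00428), with the KO lower at D0 and higher at D15. With the CRISPR control counted with the wt it was 2.4 and not called (FDR 0.18 by edgeR). For *Tet1* it was 1.03 (FDR 0.0359), with wt lower at D15 and KO overlapping between the days. The call of *Tet1* was lost without wt D0 replicate 2 (0.83) and without other single libraries.

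At D15, every KO library of 1 line lay on one side of its wt libraries and every KO library of the other line on the opposite side for 5 members. The log2 difference in *Tsix*-stop and in E8 was 0.88 and -0.37 for *Dnmt3l*, 0.92 and -1.02 for *Tet1*, 0.61 and -0.62 for *Tet2*, -1.19 and 0.51 for *Tet3*, and 0.49 and -0.37 for *Uhrf1*. The difference between the lines was not tested.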

How the results depend on the processing

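Of 112 combinations of member and comparison, 29 were called, and 17 of these were called under every alternative. DESeq2, other size factors and counts on the *cast* genome changed no call of a member. With 2 libraries a group, depth does not limit the levels, but the pseudo-129 shares of *Tet3* and of *Dnmt3l* at D0 rest on few SNP reads.

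Adding the CRISPR control to wt left 20 genes and 0 members called between KO and wt at D0, 1115 genes at D15, and 564 genes and 1 member in the interaction. It turned *Taf7l* to -0.21 and -0.04 (KO against wt at D0, wt D15 against D0), *Dnmt3b* to -0.1 and 0.21 (KO against wt at D15, wt D15 against D0), and the interaction of *Tet2* to 0.22. With no filter 1738 (D0), 3099 (D15), 7713 (wt D15 against D0) and 5665 (KO D15 against D0) genes were called. In E8, a pseudocount of 0.1 called 2 members between KO and wt at D7, with *Tet3* added, and 332 genes between wt D15 and D7. E8 libraries rescaled to the same median also gave 2 members called at D7, with *Dnmt3a* added, and turned *Dnmt1* (-0.14) and *Dnmt3b* (-0.21) at D7, *Dnmt3b* at D15 (-0.06) and the interaction of *Tet1* (0.04). For each other result that moved the cause was not tested.

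Without 1 library at a time, *Tsix*-stop calls of members ranged from 1 to 2 between KO and wt at D15 and from 1 to 4 in the interaction. In E8 they ranged from 1 to 2 between KO and wt at D7 and from 0 to 1 between wt D15 and D7. Genes called by the pseudo-129 share ranged from 1414 to 2268 between KO and wt at D15 (1414 without wt D15 replicate 1) and from 1294 to 1975 between KO D15 and D0 (1294 without KO D0 replicate 1). Members called by that share ranged from 1 to 3 in wt and from 0 to 3 in KO between the days. Uncalled log2 differences that crossed 0 had these ranges. For KO against wt in *Tsix*-stop at D0 they were -0.01 to 0.31 for *Dnmt1* and -0.37 to 0.1 for *Tet1*. Between KO D15 and D0, *Tet1* had -0.47 to 0.0. In E8, KO against wt gave -0.01 to 0.03 for *Dnmt3b* at D7 and -0.05 to 0.04 for *Dnmt1* at D15. E8 wt D15 against D7 gave -0.06 to 0.04 for *Tet3* and -0.01 to 0.11 for *Dnmt3a*, and E8 KO gave -0.01 to 0.02 for *Dnmt1*. The E8 interaction ranged from -0.05 to 0.07 for *Tet2* and from -0.04 to 0.01 for *Tet1*. The pseudo-129 ratio of KO against wt ranged from -0.66 to 0.32 for *Dnmt3l* at D0, and at D15 from -0.15 to 0.04 for *Tet2*, -0.08 to 0.05 for *Uhrf1* and -0.11 to 0.04 for *Dnmt3b*. Between the days it ranged from -0.06 to 0.08 for *Dnmt3b* and -0.34 to 0.17 for *Uhrf1* in wt, and from -0.97 to 0.01 for *Dnmt3l* in KO.

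The labels give the groups the same replicate numbers but do not say that a number marks a shared culture or batch. Deviations of same-numbered libraries correlated at -0.209 to 0.228 in *Tsix*-stop and -0.162 to 0.116 in E8, and not every pair was over 0.1, so the numbers were not taken to pair the libraries. The highest value was that of KO D0 with KO D15 (0.228), and the labels do not say whether KO numbers mark the 2 clones. With the replicate block 1057 (D0), 2005 (D15), 4973 (wt) and 3626 (KO) *Tsix*-stop genes were called, and in E8 2188 (D7), 1340 (D15), 177 (wt) and 766 (KO), and the number of members called was the same in each comparison. A crossed pairing, chosen after seeing the data, called 1080, 2004, 4977 and 3629 genes in *Tsix*-stop and 2190, 1341, 178 and 765 in E8.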
